A study of Rattus norvegicus with 8 samples.

Results

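The 5 muscarinic acetylcholine receptor genes (Chrm1 to Chrm5) and 4 of the somatostatin receptor genes (Sstr1 to Sstr4) were followed across every treatment of cultured rat neurons. They were found by matching the RefSeq accession of each probe, without its version, to these symbols, which gave 9 genes of the 26903 genes and unnamed accessions on the array. The genes were selected on their log2 ratios of treated over vehicle RNA, which were known when the families were chosen, so those ratios are a description and support no claim about the families. The cells were primary cortical and hippocampal neurons of Sprague Dawley rats at embryonic day 18, cultured for 7 days before treatment. Treatments were CAT-SKL alone, ADDL alone, CAT-SKL then ADDL (written CAT-SKL+ADDL) and ADDL then CAT-SKL (written ADDL+CAT-SKL). Combined names are read here as listing the agents in the order given, which the sample labels do not spell out. Each agent was given at 1 µM for 24 h, so the sequential treatments ran longer than the single ones. CAT-SKL is a catalase that carries a peroxisome targeting signal and ADDL are soluble oligomers of amyloid-beta. The study asked which genes change in neurons given the oligomers with or without the antioxidant. Each treatment had 2 arrays, and every array set treated RNA (Cy5) against RNA of vehicle-treated neurons (Cy3), with no dye swap. A ratio of the same sign on every array therefore cannot be told apart from a dye effect of that probe. The labels do not say how many embryos or cultures stand behind a sample.

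Muscarinic receptors are G protein-coupled receptors for acetylcholine. Those encoded by Chrm1, Chrm3 and Chrm5 act through Gq and phospholipase C, which release calcium from internal stores, and those encoded by Chrm2 and Chrm4 act through Gi/o, which lowers cyclic AMP and opens inward rectifier potassium channels. Somatostatin receptors also act through Gi/o, and in the cortex their peptide ligand is released by a class of inhibitory interneurons. In bulk RNA, fewer cells of a type and less RNA per cell cannot be told apart.

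Promoter sequences are shown for the 6 receptor genes whose mean ratio in a treatment lay farthest from 0. With them the regions around the starts of the 4 somatostatin receptor genes can be compared. The mean ratio of each of these 4 was highest after ADDL+CAT-SKL, though Sstr4 stayed below vehicle there and Sstr1 lay close to it. The sequences are from RefSeq on the GRCr8 assembly. They run from 250 bases before to 50 bases after each gene's annotated start, read 5′ to 3′ on the gene's strand. In the order of the lines, the windows of Chrm3, Chrm4, Sstr1, Sstr2, Sstr3 and Sstr4 are chr17:64696677-64696976 (plus strand), chr3:98348830-98349129 (plus strand), chr6:81567233-81567532 (plus strand), chr10:99163103-99163402 (plus strand), chr7:111980201-111980500 (minus strand) and chr3:156307742-156308041 (plus strand). Capitals mark the core of a cyclic AMP response element (TGACG) or a GC box (GGGCGG), searched on both strands, so that the reverse complement is capitalised as well.
Chrm3: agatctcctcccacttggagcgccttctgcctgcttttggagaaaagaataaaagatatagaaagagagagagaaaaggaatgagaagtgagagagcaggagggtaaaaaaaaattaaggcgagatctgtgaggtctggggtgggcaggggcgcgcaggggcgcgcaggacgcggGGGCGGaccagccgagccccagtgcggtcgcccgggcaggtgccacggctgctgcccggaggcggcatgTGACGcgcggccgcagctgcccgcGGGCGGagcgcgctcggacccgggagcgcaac
Chrm4: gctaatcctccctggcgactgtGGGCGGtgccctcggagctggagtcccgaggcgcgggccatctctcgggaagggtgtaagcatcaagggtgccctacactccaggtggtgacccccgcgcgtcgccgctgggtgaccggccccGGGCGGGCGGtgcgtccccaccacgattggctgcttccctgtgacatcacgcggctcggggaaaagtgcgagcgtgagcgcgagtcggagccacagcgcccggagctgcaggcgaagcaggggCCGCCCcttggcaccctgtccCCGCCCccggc
Sstr1: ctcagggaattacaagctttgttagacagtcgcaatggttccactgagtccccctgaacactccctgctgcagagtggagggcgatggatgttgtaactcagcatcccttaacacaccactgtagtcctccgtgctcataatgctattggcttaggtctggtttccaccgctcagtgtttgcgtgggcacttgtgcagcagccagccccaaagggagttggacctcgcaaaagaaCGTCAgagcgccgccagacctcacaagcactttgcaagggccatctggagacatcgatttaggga
Sstr2: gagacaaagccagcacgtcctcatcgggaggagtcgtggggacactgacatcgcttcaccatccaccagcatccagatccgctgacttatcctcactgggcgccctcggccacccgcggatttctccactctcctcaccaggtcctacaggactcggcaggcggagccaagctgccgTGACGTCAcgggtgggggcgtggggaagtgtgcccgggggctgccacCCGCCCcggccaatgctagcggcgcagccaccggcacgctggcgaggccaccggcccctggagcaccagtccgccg
Sstr3: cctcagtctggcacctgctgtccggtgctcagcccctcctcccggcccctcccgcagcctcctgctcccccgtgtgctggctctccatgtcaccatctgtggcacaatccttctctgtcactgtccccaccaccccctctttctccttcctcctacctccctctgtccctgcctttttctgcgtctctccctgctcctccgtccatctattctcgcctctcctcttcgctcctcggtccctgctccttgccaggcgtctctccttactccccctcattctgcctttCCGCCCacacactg
Sstr4: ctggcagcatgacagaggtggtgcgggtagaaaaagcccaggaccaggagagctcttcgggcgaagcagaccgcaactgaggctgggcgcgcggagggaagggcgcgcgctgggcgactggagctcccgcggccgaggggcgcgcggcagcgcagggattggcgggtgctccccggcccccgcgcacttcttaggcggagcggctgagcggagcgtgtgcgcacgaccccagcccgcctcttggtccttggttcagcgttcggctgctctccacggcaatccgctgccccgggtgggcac
The TGACG core was present in 4 of the 8 receptor promoters found in the table and in 21.2% of 33469 rat promoters of the same length. In Sstr2 it was read on both strands as an overlapping palindrome whose first base lies at position -73 from the annotated start. Sstr1 had 1 match, at position -15, and Chrm3 had 1 match, at position -6. The GC box was present in 5 of the 8 promoters, against 33.1% of all promoters, with 5 matches in Chrm4, 2 of which overlapped. A TATA box (TATAAA, in 14.2% of all promoters) and an AP-1 site (TGANTCA, in 7.33%) were searched in the same way and matched 0 of the 8. Sstr4 held none of the 4 motifs within its window. These matches describe the letters of the windows and nothing in the arrays bears on their use.

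Signal set how far each receptor could be followed. Across the 8 arrays, Sstr2 stood 158 to 197 times above its local background in the vehicle channel, Chrm3 42.1 to 48.4 times, Sstr1 38.4 to 53.1 times, Chrm4 28.4 to 34.9 times and Sstr4 11.0 to 12.8 times. Sstr3 was at 2.72 to 3.61 times its background, and Chrm1 (1.42 to 2.10 times) and Chrm2 (1.71 to 2.21 times) were dim on all 8 arrays. Chrm5 was well above background in the vehicle channel on 2 of 8 arrays, and its ratios, between -0.01 and 0.14, carry little information. These values say how well each probe was read and do not rank the genes against one another. All 9 genes passed the filter, which asked for a probe well above background, in Cy5 or Cy3, on 2 or more arrays. Sstr5, the remaining somatostatin receptor gene, was dim as well, with ratios between -0.13 and 0.07.

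Chrm3, the Gq-coupled M3 receptor gene, was above vehicle on every array. Its log2 ratios to vehicle were 0.17 and 0.35 after CAT-SKL, 0.39 and 0.37 after ADDL, 0.29 and 0.26 after CAT-SKL+ADDL, and 0.41 and 0.55 after ADDL+CAT-SKL. The ADDL+CAT-SKL arrays were the highest and did not overlap with those of the other treatments (centred on the array median instead of loess, they overlapped with CAT-SKL, and in the deposited log ratios with CAT-SKL and with ADDL), while CAT-SKL and CAT-SKL+ADDL overlapped at the lower end. In limma's fit across 22459 genes and accessions, Chrm3 rose after ADDL+CAT-SKL, by 0.48 ± 0.06 (SE, n = 2, adjusted p = 0.0446). That mean ratio equals 139% of vehicle. The comparison called 102 of the genes tested, or 0.454% (0.24% higher and 0.214% lower), and Chrm3 was the 1 receptor gene among them. It was not called after ADDL (0.38 ± 0.06, limma adjusted p = 0.0714), CAT-SKL (0.26 ± 0.06, adjusted p = 0.0716) or CAT-SKL+ADDL (0.28 ± 0.09, adjusted p = 0.299). With median centring limma called it after CAT-SKL (0.39, adjusted p = 0.0105) and after ADDL (0.35, adjusted p = 0.0476), and without either CAT-SKL array it was called after ADDL as well (adjusted p = 0.0441). The call was lost, with an adjusted p between 0.0655 and 0.306, without any 1 of the CAT-SKL, ADDL or ADDL+CAT-SKL arrays, and with the deposited log ratios (0.39, adjusted p = 0.32), no background correction (adjusted p = 0.0824) or no filter on dim probes (adjusted p = 0.0501).

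Chrm4, the Gi/o-coupled M4 receptor gene, was below vehicle on every array, the opposite side from Chrm3. Its log2 ratios were -0.39 and -0.35 after CAT-SKL, -0.31 and -0.21 after ADDL, -0.39 and -0.23 after CAT-SKL+ADDL, and -0.43 and -0.17 after ADDL+CAT-SKL. The ADDL+CAT-SKL arrays were the lowest and the highest of the 8, so its range covered that of each other treatment, and only CAT-SKL and ADDL did not overlap. Chrm4 fell after CAT-SKL, by 0.37 ± 0.07 on the log2 scale (SE, n = 2, limma adjusted p = 0.043), to 77.3% of vehicle. That comparison called 588 genes, or 2.62% of those tested (0.837% higher and 1.78% lower), and Chrm4 was the 1 receptor gene called. Without the first CAT-SKL array its adjusted p was 0.433 and 2 genes in all were called; the call was also lost without the second CAT-SKL array (adjusted p = 0.113) or either ADDL array (0.0647). It was lost as well with median centring (-0.25, adjusted p = 0.0863), the deposited log ratios (0.188), no background correction (0.0554) or no filter on dim probes (0.0528). The means of the other treatments were -0.26 ± 0.07 for ADDL, -0.31 ± 0.10 for CAT-SKL+ADDL and -0.30 ± 0.07 for ADDL+CAT-SKL, with limma adjusted p between 0.0946 and 0.29. Over all genes tested, 7.47% lay above vehicle on all 8 arrays and 7.99% below, so a constant sign as in Chrm3 and Chrm4 was not rare.

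The other muscarinic receptor genes stayed closer to 0 and showed no constant sign. Chrm1, the Gq-coupled M1 receptor gene of forebrain neurons, had log2 ratios of 0.017 and 0.28 after CAT-SKL, 0.0029 and 0.0092 after ADDL, -0.12 and -0.0054 after CAT-SKL+ADDL, and -0.021 and -0.15 after ADDL+CAT-SKL. The second CAT-SKL array stood alone above the rest. Chrm2, the Gi/o-coupled M2 receptor gene, had log2 ratios of -0.14 and 0.11 after CAT-SKL, -0.025 and -0.088 after ADDL, -0.094 and 0.015 after CAT-SKL+ADDL, and 0.10 and 0.064 after ADDL+CAT-SKL. The CAT-SKL arrays were its lowest and its highest. A second, dimmer Chrm2 probe, well above background in either channel on 6 of 8 arrays, gave ratios between -0.11 and 0.021. Limma's smallest adjusted p for Chrm1, Chrm2 and Chrm5 in any comparison with vehicle was 0.288, for Chrm1 after CAT-SKL.

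**Figure D1:**
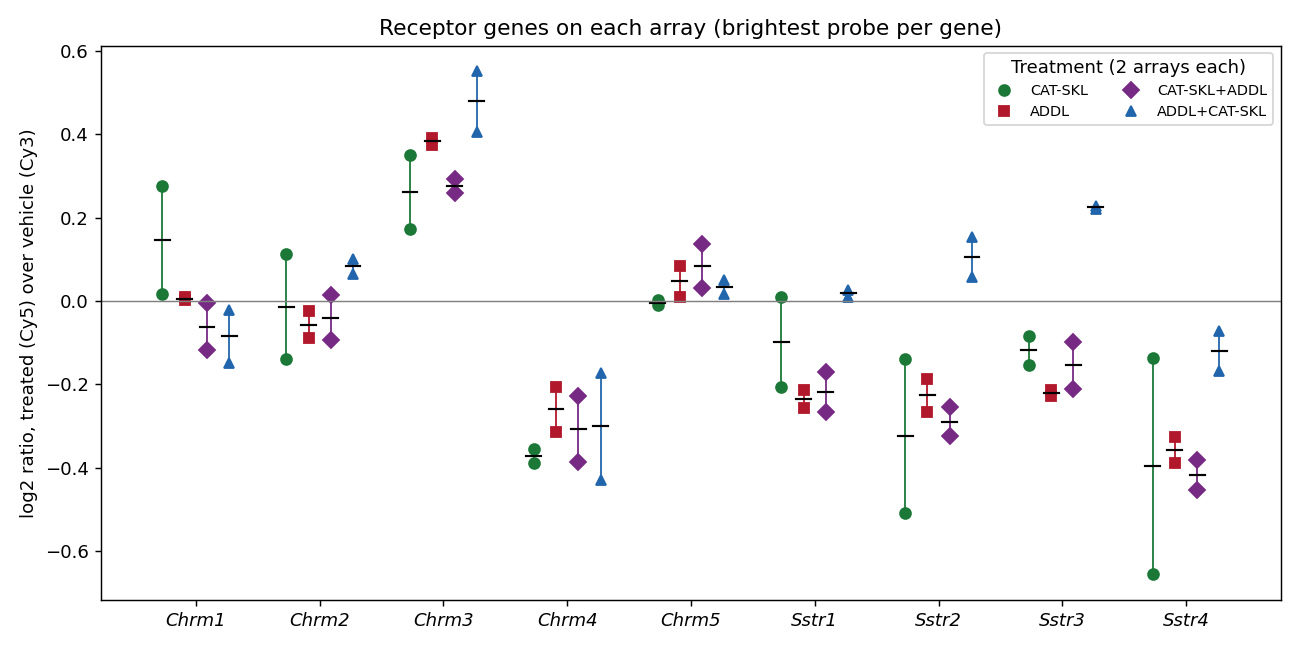
Log2 ratio of treated (Cy5) over vehicle (Cy3) RNA for the 9 receptor genes, 1 point per array and 4 treatments of 2 arrays, with a line joining the arrays of a treatment. Chrm3 lies above 0 and Chrm4 and Sstr4 lie below 0 on all 8 arrays, and for Sstr2 and Sstr3 the ADDL+CAT-SKL arrays are the only ones above 0 after loess.

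The somatostatin receptor genes were below vehicle in most treatments and nearer to it or above it after ADDL+CAT-SKL. The scaling changed several of these means. Median centring moved Sstr1 after CAT-SKL from -0.10 to 0.03 and after CAT-SKL+ADDL from -0.22 to -0.05. It moved Sstr2 after CAT-SKL from -0.32 to -0.16 and after CAT-SKL+ADDL from -0.29 to -0.07. Sstr2 encodes a receptor found widely on cortical neurons. Its log2 ratios were -0.51 and -0.14 after CAT-SKL, -0.27 and -0.19 after ADDL, -0.32 and -0.25 after CAT-SKL+ADDL, and 0.15 and 0.057 after ADDL+CAT-SKL. After loess the ADDL+CAT-SKL arrays were the only ones above vehicle, and the other 3 treatments overlapped with one another. With median centring the second CAT-SKL array was above vehicle too, at 0.061, and higher than the second ADDL+CAT-SKL array, at 0.024. The means were 79.9% of vehicle after CAT-SKL, 85.5% after ADDL, 81.8% after CAT-SKL+ADDL and 108% after ADDL+CAT-SKL. A second Sstr2 probe with 1 spot gave -0.16 and 0.15, -0.27 and -0.24, -0.17 and -0.085, and 0.17 and -0.065 for the treatments in the same order. It matched the first probe after ADDL and in sign after CAT-SKL+ADDL, but after CAT-SKL and after ADDL+CAT-SKL its arrays lay on both sides of vehicle.

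Sstr3, which encodes a receptor of neuronal primary cilia, showed the clearest separation of the arrays. Its log2 ratios were -0.15 and -0.083 after CAT-SKL, -0.21 and -0.23 after ADDL, -0.099 and -0.21 after CAT-SKL+ADDL, and 0.23 and 0.22 after ADDL+CAT-SKL. Both ADDL+CAT-SKL arrays were above vehicle and all 6 others below it. The probe is dim, and the offset of 50 in the background correction compresses its ratios: in the deposited log ratios the ADDL+CAT-SKL arrays were at 0.47 and 0.45 and the ADDL arrays at -0.55 and -0.38. Sstr1, a Gi/o-coupled receptor gene like the rest of the family, had log2 ratios of -0.21 and 0.0087 after CAT-SKL, -0.26 and -0.21 after ADDL, -0.17 and -0.27 after CAT-SKL+ADDL, and 0.028 and 0.0096 after ADDL+CAT-SKL. After loess the ADDL+CAT-SKL arrays and the second CAT-SKL array lay at vehicle, and the other 5 were below it. Sstr4 had log2 ratios of -0.66 and -0.14 after CAT-SKL, -0.33 and -0.39 after ADDL, -0.45 and -0.38 after CAT-SKL+ADDL, and -0.17 and -0.073 after ADDL+CAT-SKL. It was below vehicle on all 8 arrays, least so on the ADDL+CAT-SKL arrays and the second CAT-SKL array.

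None of the 4 somatostatin receptor genes passed the threshold against vehicle. Limma's closest were Sstr2 after CAT-SKL (-0.32 ± 0.09, SE, n = 2, adjusted p = 0.0816), Sstr4 after CAT-SKL (-0.40 ± 0.11, adjusted p = 0.0846) and Sstr3, which was at -0.22 ± 0.05 after ADDL (adjusted p = 0.092) and at 0.22 ± 0.05 after ADDL+CAT-SKL (adjusted p = 0.0919). Limma called 0 of 22459 genes after ADDL and 0 after CAT-SKL+ADDL, where 4269 and 2543 had an unadjusted p under 0.05. Of the 9 receptor genes, 4 had an unadjusted p under 0.05 after CAT-SKL, 6 after ADDL, 5 after CAT-SKL+ADDL and 3 after ADDL+CAT-SKL. The shares of all genes tested were 21.2%, 19.0%, 11.3% and 17.6% in that order. The median log2 ratio of the 9 was -0.10, -0.22, -0.15 and 0.03 for the treatments in that order, while the median of all genes lay between -0.0040 and -0.00016. The CAT-SKL median rests on the first array of that treatment, without which it was 0.0031. The SD between the CAT-SKL arrays was 0.26 for Sstr2 and 0.37 for Sstr4. With 8 separate samples in the fit, limma called 4, 2, 5 and 3 of the 9 receptor genes for the treatments in the same order. Of all 22459 genes it then called 1820, 975, 2322 and 886. The number of calls, among the receptor genes and over all genes, thus depends on how the arrays are counted.

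For most of the receptor genes, levels spread more in the treated channel than in the vehicle channel. After scaling between arrays, the vehicle level of Sstr2 had an SD of 0.0463 over the 8 arrays on the log2 scale and the treated level an SD of 0.191. For Sstr4 the SDs were 0.0462 for vehicle and 0.217 for treated RNA, for Sstr1 0.0356 and 0.127, and for Sstr3 0.0776 and 0.146. Chrm3 (0.0420 and 0.112), Chrm4 (0.0464 and 0.119) and the brighter Chrm2 probe (0.0314 and 0.102) showed the same order. The dim probes of Chrm1 (0.0893 and 0.0892) and Chrm5 (0.0413 and 0.0403) did not, nor did the second Chrm2 probe (0.0406 and 0.0348). The median SD of all tested probes was 0.0598 for vehicle and 0.0936 for treated RNA, so treated levels spread more in general, and the channels differ in dye as well as in treatment. For Sstr3 part of the difference between treatments lay in the vehicle channel. Its mean vehicle level was 6.765 on the ADDL+CAT-SKL arrays, against 6.867 for CAT-SKL, 6.85 for ADDL and 6.883 for CAT-SKL+ADDL. The treated means were 6.989, 6.749, 6.63 and 6.729 in that order.

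**Figure D2:**
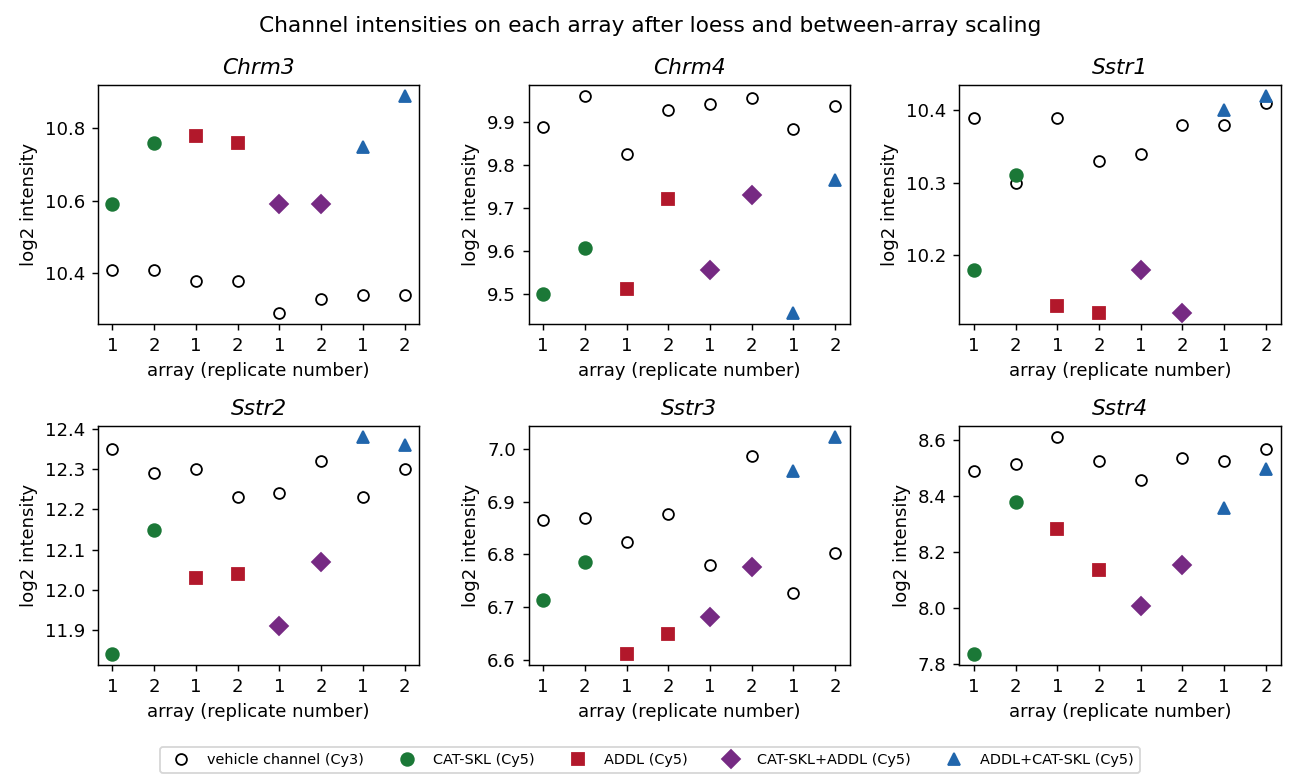
Log2 intensity of the treated (Cy5, filled) and vehicle (Cy3, open) channel on each of the 8 arrays, after loess and scaling between arrays, in 1 panel per gene. The vehicle level of Sstr2 keeps within 12.23 to 12.35, while the treated level runs from 11.84 to 12.38 and is highest on the ADDL+CAT-SKL arrays.

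The comparison of ADDL+CAT-SKL with ADDL asks whether the antioxidant given after the oligomers changes their effect. Sstr1, Sstr2, Sstr3 and Sstr4, with Chrm2 and Chrm3, were higher on both ADDL+CAT-SKL arrays than on both ADDL arrays, which makes 6 of the 9 receptor genes against 19.1% of all genes tested. Chrm1 was lower on both, 1 of 9 against 20.6%. The difference of log2 ratios was 0.44 ± 0.07 for Sstr3, 0.33 ± 0.12 for Sstr2 (0.30 ± 0.12 with its second probe), 0.25 ± 0.09 for Sstr1 and 0.24 ± 0.15 for Sstr4 (SE, n = 2 against 2). None passed in limma's fit, with an adjusted p of 0.573 for the first 3 genes and 0.677 for Sstr4. Limma called 0 of all genes in this comparison, and 3 of the receptor genes had an unadjusted p under 0.05, against 8.39% of all genes. The single treatments also lay in another row of the slide and lasted 24 h less than the sequential ones, so sequence, duration and position cannot be told apart here.

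With the antioxidant given first, the difference between CAT-SKL+ADDL and ADDL after loess was 0.066 ± 0.09 for Sstr3, -0.062 ± 0.15 for Sstr2, 0.018 ± 0.11 for Sstr1 and -0.059 ± 0.18 for Sstr4 (SE; limma adjusted p = 1 for each). The 95% intervals of these differences ran from -0.14 to 0.27 for Sstr3, -0.40 to 0.28 for Sstr2, -0.23 to 0.27 for Sstr1 and -0.48 to 0.36 for Sstr4. With median centring the differences were 0.03, 0.18, 0.22 and 0.06 for these genes, with limma adjusted p between 0.739 and 0.948. After loess 1 receptor gene, Sstr3, was higher on both arrays after CAT-SKL+ADDL and 2, Chrm1 and Chrm3, were lower, against 22.4% and 24.9% of all genes. With median centring 4 were higher (Chrm3, Sstr1, Sstr2 and Sstr4) and 1, Chrm1, was lower, against 39.2% and 29.0% of all genes. The sequential treatments were then set against each other, in the same row of the slide and of the same duration. ADDL+CAT-SKL was higher on both arrays for 6 of the 9 receptor genes, the 4 somatostatin receptor genes with Chrm2 and Chrm3, and lower for 0, against 24.8% and 24.5% of all genes; with median centring the Sstr1 arrays overlapped and Chrm4 was lower. CAT-SKL+ADDL minus ADDL+CAT-SKL was -0.38 ± 0.09 for Sstr3, -0.39 ± 0.15 for Sstr2, -0.24 ± 0.11 for Sstr1 and -0.30 ± 0.18 for Sstr4, with limma adjusted p between 0.857 and 0.876. With the second Sstr2 probe this difference was smaller, at -0.18 ± 0.15. For CAT-SKL+ADDL minus ADDL that probe gave 0.12 ± 0.15, of the opposite sign to the first probe after loess. CAT-SKL+ADDL counts as 1 sample in these fits, because over all probes its arrays differed from each other by no more than the noise between duplicate spots. The counts of genes higher or lower on both arrays still use its 2 arrays separately, for the receptor genes and for all genes.

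**Figure D3:**
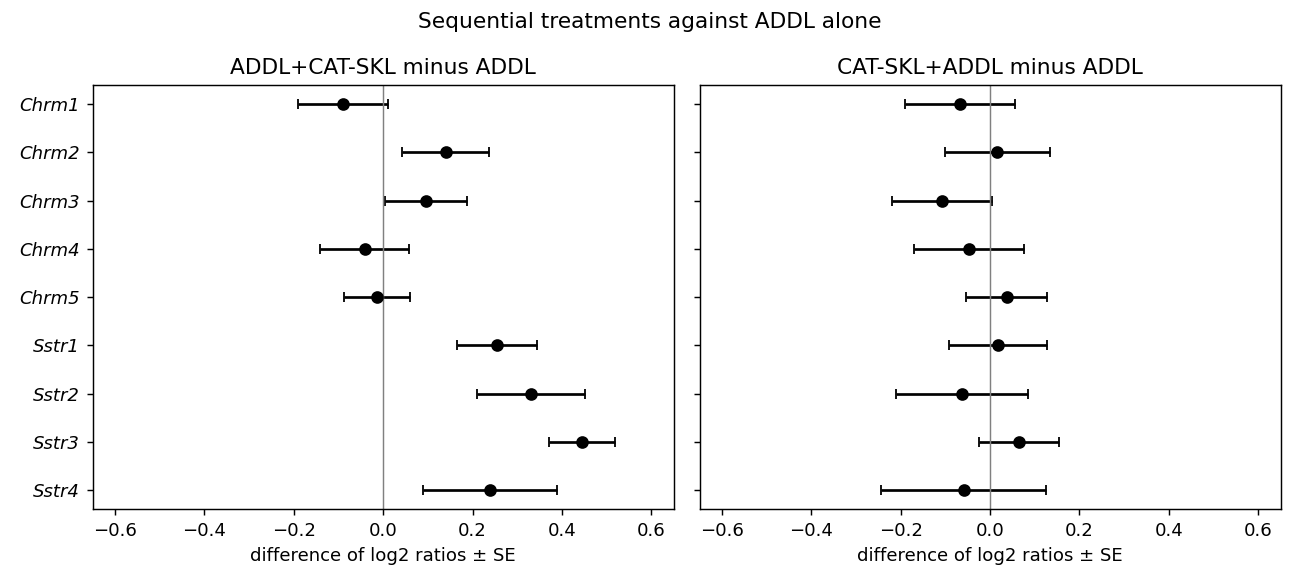
Difference of log2 ratios (x axis, ± SE from limma) for the 9 receptor genes, with CAT-SKL+ADDL minus ADDL in one panel and ADDL+CAT-SKL minus ADDL in the other. Sstr3 stands at 0.44 after ADDL+CAT-SKL and at 0.066 after CAT-SKL+ADDL, and none of the differences passed the threshold.

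Between the single treatments the direction depended on the gene and the scaling. After loess CAT-SKL was higher than ADDL on both arrays for 3 of the 9 genes and lower for 3, against 18.3% and 22.0% of all genes. Sstr1 differed by 0.14 ± 0.09 and Chrm3 by -0.12 ± 0.09 (SE, n = 2 against 2), and limma's adjusted p for the 9 genes ran from 0.712 to 0.971. With median centring 7 of the 9 differences were above 0, among them Sstr1 at 0.30 and Chrm3 at 0.04, with limma adjusted p between 0.484 and 0.951. The arrays then did not overlap for 2 genes higher after CAT-SKL (Sstr1 and Sstr3) and 1 lower (Chrm5), against 30.7% and 24.3% of all genes. After loess ADDL+CAT-SKL was higher than CAT-SKL on both arrays for 5 of the 9 (Chrm3, Chrm5, Sstr1, Sstr2 and Sstr3) and lower for 1 (Chrm1), against 20.7% and 20.1%. With median centring it was higher for 1, Sstr3, and lower for 1, Chrm1, against 10.6% and 15.8%. All treatments were set against vehicle RNA, and the labels do not say whether it was a common pool. No correlation between the ratios of different treatments is therefore drawn.

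Cell type markers varied over the same arrays as the somatostatin receptor genes. All 5 neuron markers on the array, such as Tubb3 (453 to 566 times background in the vehicle channel) and Snap25 (169 to 231 times), were well above background on all 8 vehicle channels, and so were all 9 astrocyte and all 9 GABAergic markers on the array. The median log2 ratio of the 9 tested astrocyte markers was 1.23 and 0.27 after CAT-SKL, 0.57 and 1.19 after ADDL, 1.19 and 1.13 after CAT-SKL+ADDL, and 0.33 and -0.06 after ADDL+CAT-SKL. The arrays on which this median was low, the second CAT-SKL array and both ADDL+CAT-SKL arrays, were those on which Sstr1, Sstr2, Sstr3 and Sstr4 were highest after loess. The median of the 8 oligodendrocyte lineage markers was 0.76 and 0.33, 0.36 and 0.58, 0.72 and 0.75, and 0.12 and -0.0050 in the same order. Single markers of that list went both ways, from -1.2 to 1.0 and from -1.0 to 0.42 on the ADDL+CAT-SKL arrays. On the second CAT-SKL array they ran from -0.78 to 0.82. The 5 neuron markers tested had medians between -0.18 and 0.09, with single markers from -0.58 to 0.59. The part of these cell types in the receptor ratios was not tested.

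GABAergic markers, which include the interneurons that release somatostatin, lay above vehicle in all treatments, with medians between 0.16 and 0.46 per array. After CAT-SKL 4 of the 9 tested rose, Npy, Slc32a1, Calb1 and Gad1, and 3 of 8 oligodendrocyte lineage markers (Olig2, Pdgfra and Sox10) and 1 of 6 microglia markers (Fcer1g) rose, all by limma, in a comparison that called 0.837% of all genes as higher. All 8 calls were lost with the deposited log ratios (limma adjusted p between 0.178 and 0.196) and without the first CAT-SKL array (0.32 to 0.443), and that of Calb1 also without the second (0.16). Over the 17 alternatives each of the 8 genes was called in 8 to 14. After ADDL+CAT-SKL 1 of 6 glutamatergic markers rose, the vesicular glutamate transporter gene Slc17a6 (0.41 ± 0.06, limma adjusted p = 0.0446), where 0.24% of all genes were called higher. The list as a whole did not rise: 3 of its genes lay above vehicle and 3 below, from -0.32 to 0.41, with a median of -0.015. Slc17a6 was called in 7 of the 17 alternatives and lost, among others, with the deposited log ratios (adjusted p = 0.32) and without either ADDL+CAT-SKL array (0.224 and 0.309).

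**Figure D4:**
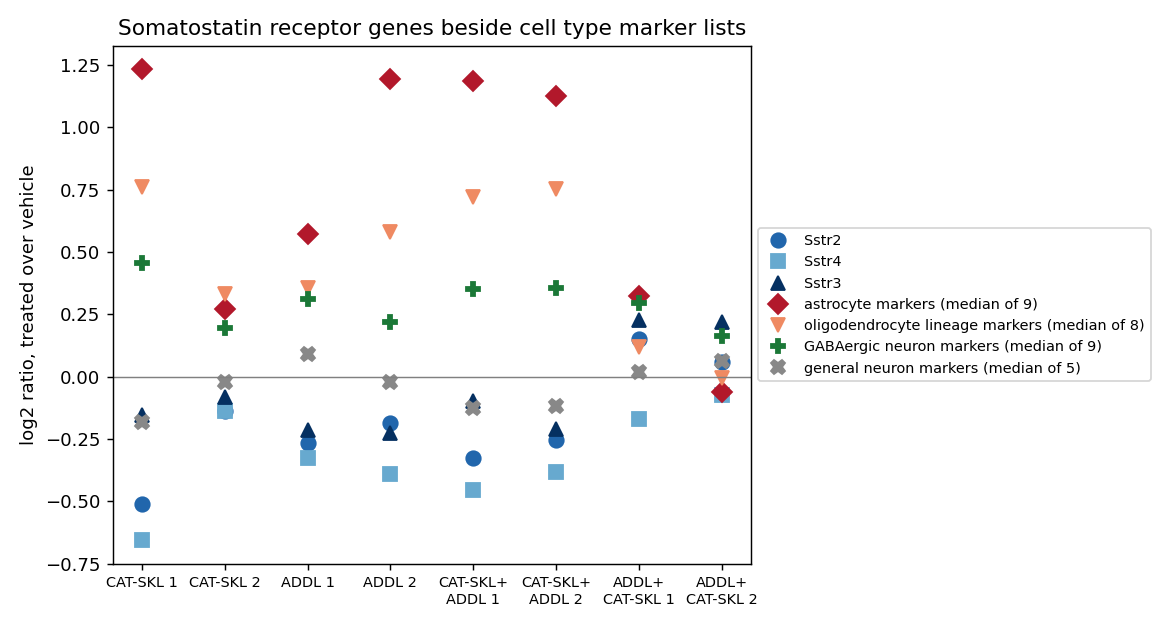
Log2 ratio of treated over vehicle RNA on each of the 8 arrays (x axis) for Sstr2, Sstr3 and Sstr4 beside the medians of cell type marker lists. The astrocyte median is at 1.23 on the first CAT-SKL array, where Sstr2 is at -0.51, and at -0.06 on the second ADDL+CAT-SKL array, where Sstr2 is at 0.057. It is at 0.27 on the second CAT-SKL array, where Sstr2 is at -0.14. On the first ADDL+CAT-SKL array it is higher, at 0.33, and Sstr2 is higher too, at 0.15.

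On the ligand side, 11 of 12 listed genes for ligands and their synthesis, uptake and breakdown were tested. Cort, which encodes cortistatin, a peptide that binds the somatostatin receptors, rose after CAT-SKL, by 1.04 ± 0.12 (SE, n = 2, limma adjusted p = 0.0216). That call was kept in 15 of the 17 alternatives and lost with the deposited log ratios (adjusted p = 0.178) and without the first CAT-SKL array (0.32). It was at 0.56 ± 0.12 after ADDL, 1.25 ± 0.17 after CAT-SKL+ADDL and 0.58 ± 0.12 after ADDL+CAT-SKL, with limma adjusted p of 0.077, 0.201 and 0.0796. Sst, the somatostatin gene, had log2 ratios of 0.14, 0.22, 0.11 and 0.03 for the treatments in the same order, none called. Chat, which makes acetylcholine, had ratios of 0.03, 0.15, 0.01 and -0.05 on a dim probe (1.46 to 2.13 times background in the vehicle channel). Ache, which breaks acetylcholine down, had -0.08, -0.16, -0.14 and -0.18. Of 5 tested cholinergic neuron markers limma called 0, with 0, 1, 0 and 0 at an unadjusted p under 0.05. The shares of all genes at that limma p were 21.2%, 19%, 11.3% and 17.6% for the treatments in the same order. In the list of ligand genes 1 gene, Cort, was called in the comparisons with vehicle. That was after CAT-SKL, where 0.837% of all genes were called higher. The median of the list lay between -0.0074 and 0.018.

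Downstream of the receptors, few genes passed. Of 18 tested genes of the Gq arm, 1 was called, Dgka, a kinase that removes diacylglycerol, which fell by 0.31 ± 0.06 after CAT-SKL (SE, n = 2, limma adjusted p = 0.0499), where 1.78% of all genes were called lower. Dgka was called in 4 of the 17 alternatives, and its adjusted p was 0.116 with median centring, 0.239 with the deposited log ratios and 0.531 and 0.0605 without the first and the second CAT-SKL array. Limma called 0 of the 20 tested genes of the Gi/o arm, with 5 at an unadjusted p under 0.05 after CAT-SKL, 5 after ADDL, 1 after CAT-SKL+ADDL and 6 after ADDL+CAT-SKL, where the shares of all genes were 21.2%, 19.0%, 11.3% and 17.6%. Of the 17 tested receptor regulators 0 were called, with 3, 6, 1 and 4 at an unadjusted p under 0.05. Rgs2, which limits Gq signalling, had log2 ratios of -0.44, -0.56, -0.45 and -0.30. The medians of these 3 lists lay between -0.093 and 0.013 in the comparisons with vehicle.

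Other receptors gave a reference for the muscarinic and somatostatin receptors. Of 35 tested genes for other Gi/o- or Gq-coupled receptors of cortical neurons, limma called 0 in any comparison, with 7, 10, 2 and 4 at an unadjusted p under 0.05 against vehicle and medians between -0.024 and 0.027. Cnr1, the cannabinoid receptor gene of presynaptic terminals, came closest, at 0.54 ± 0.09 after ADDL+CAT-SKL (SE, n = 2, limma adjusted p = 0.0615). Of 10 tested nicotinic acetylcholine receptor genes, the ion channels for acetylcholine, limma called 0, with 2, 1, 1 and 2 at an unadjusted p under 0.05. Of all genes, an unadjusted limma p under 0.05 held for 21.2% after CAT-SKL, 19% after ADDL, 11.3% after CAT-SKL+ADDL and 17.6% after ADDL+CAT-SKL. Chrna4 had log2 ratios of 0.23, 0.31, 0.25 and -0.17, so its lowest ratio was in ADDL+CAT-SKL, where Sstr2 and Sstr3 had their highest.

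The gene of each family with the widest spread over the 7 samples was set against the named genes whose ratios ranged over at least 0.5, as a description, since the genes share the arrays and the vehicle RNA. For Sstr2 (SD 0.222), the ratios most like it among 1172 candidates were those of Mapk10, a stress-activated kinase gene of neurons (r = 0.987 over 7 samples), Dlgap2, a postsynaptic scaffold gene (r = 0.976), and Cflar, a regulator of caspase activation (r = 0.970). Mapk10 was at -0.48 on the first CAT-SKL array and at 0.25 on the first ADDL+CAT-SKL array. For Chrm1 (SD 0.13), whose probe is dim, they were Tas2r139 (r = 0.938), itself at 1.16 times background, Sox12 (r = 0.875) and Phykpl (r = 0.771).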

How the data were processed

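The 9 genes and the gene lists were chosen with earlier results of these data known. The deposited scanner files, 1 per array, hold spot intensity (median pixel brightness in red and green, with local background), per the file headers. The authors' log10 ratio of red over green, from Agilent Feature Extraction 11.5 per the submitters' processing notes, is already corrected for background and dye, and their series table repeats it. Spot flags are other columns, of 0 and 1, in the deposited files; none marked saturation.

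Intensities were corrected with normexp (offset 50), normalised within arrays by loess with control spots at weight 0, and analysed with limma 3.58.1 in R 4.3.3. On each array 902 to 1262 outlier spots were dropped, and the spots of a probe were averaged. Probes were named through the RefSeq table of GRCr8 (17998 of 30367 had a symbol). The test took probes well above background in Cy5 or Cy3 on 2 or more of the 8 arrays, with values on all (25296), and a gene was represented by its brightest probe (22459 genes and unnamed accessions). Median signals over all probes were 87.5 to 127.5 in Cy5 and 104 to 111.5 in Cy3, over backgrounds of 23.5 to 29.

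All samples entered 1 fit (lmFit, eBayes), with Benjamini-Hochberg adjustment within a comparison and a threshold of 0.05. The CAT-SKL+ADDL arrays were averaged into 1 sample, since their difference on first spots did not carry over to second spots (r = 0.00719 across probes, against 0.291 to 0.709 for other pairs). This left 7 samples and 3 residual degrees of freedom (5.05 from the prior), and the lone sample is assumed to vary like the other groups. Treatments were tested as ratios against 0, which leaves out the spread of vehicle cultures, and p-values reflect only how these samples spread. Precision is limited by how few arrays there are. The median signals replaced mean signals, which are not used here. The 9 genes, Sstr5, Sst, Cort, Chat and Ache were named whatever their values, and from each list up to 4 genes with the smallest p per comparison, of which the text gives some. Alternatives changed the sample counting, background correction, normalisation, filter, probe rule, source of the ratio, replicate block and each array in turn.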

Additional observations from a re-analysis of the deposited data

How the results depend on the processing

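No call turned into a call in the other direction under any alternative run, but calls were lost and gained. Of the 17 alternatives, 8 kept the call of Chrm4 after CAT-SKL and 7 that of Chrm3 after ADDL+CAT-SKL. Some medians changed sign, as given below. Of the counts and medians over the receptor genes, 237 kept within the replicate spread (counts within a preset band) and 35 did not, against 561 and 47 for single genes. The count of receptor genes called after CAT-SKL, ADDL, CAT-SKL+ADDL and ADDL+CAT-SKL (1, 0, 0 and 1) became 4, 2, 5 and 3 with 8 separate samples. It was 0 after CAT-SKL and 0 after ADDL+CAT-SKL with the deposited log ratios, with no background correction, with no filter on dim probes and with the replicate block, and 1 after ADDL with median centring. Leaving out 1 array at a time gave 0 to 2 after CAT-SKL, 0 to 2 after ADDL (2 without either CAT-SKL array) and 0 to 1 after ADDL+CAT-SKL. The median log2 ratio of the 9 genes after CAT-SKL ran from -0.15 to 0.0031 on leaving out 1 array, the latter without the first CAT-SKL array, and CAT-SKL minus ADDL from -0.083 to 0.14. CAT-SKL minus ADDL was 0.062 with median centring and 0.029 with the mean of a gene's probes, in place of -0.038. With median centring, CAT-SKL+ADDL minus ADDL was 0.061 in place of -0.047 and CAT-SKL+ADDL minus ADDL+CAT-SKL was -0.13 in place of -0.20. With the deposited log ratios the medians were -0.27 for CAT-SKL+ADDL, 0.25 for ADDL+CAT-SKL minus ADDL and -0.33 for CAT-SKL+ADDL minus ADDL+CAT-SKL, and with no background correction CAT-SKL+ADDL was at -0.22. Over these alternatives the limma adjusted p of Chrm4 after CAT-SKL ran from 0.0174 to 0.433 and that of Chrm3 after ADDL+CAT-SKL from 0.00357 to 0.32; the cause was not tested.

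Over all genes, the 588 called after CAT-SKL (188 higher, 400 lower) became 1820 (774 and 1046) with 8 separate samples, 1819 (1417 and 402) with median centring, 275 with no filter and 0 with the deposited log ratios (4235 at an unadjusted p under 0.05). Leaving out an array gave 2 (first CAT-SKL array), 387 (second), 53 (either ADDL array) or 226 (either ADDL+CAT-SKL array). The 0 called after ADDL became 975, and 430 (292 higher) with median centring, and 329 without either CAT-SKL array; the 0 after CAT-SKL+ADDL became 2322, and 325 (302 higher). The 102 after ADDL+CAT-SKL (54 higher) became 886 and 374 (297 higher), and 0 with the deposited log ratios, with no background correction, with no filter, and without the first ADDL+CAT-SKL array or any CAT-SKL or ADDL array, and 1 without the second ADDL+CAT-SKL array. Between ADDL+CAT-SKL and ADDL the 0 called became 30 with median centring and 13 without either CAT-SKL array.

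Replicate numbers did not pair the samples: the replicate differences of CAT-SKL, ADDL and ADDL+CAT-SKL correlated at -0.0902, 0.0784 and -0.202 across genes. With the replicate block, 6 genes were called after CAT-SKL and 0 after ADDL+CAT-SKL (limma), with an adjusted p of 0.0686 for Chrm4 and 0.0974 for Chrm3.

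Signal over background limits Chrm1, Chrm2, Chrm5 and Sstr5, whose ratios the offset compresses.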
